A study of Rattus norvegicus with 70 samples.

Results

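The cytochrome P450 enzymes of families 2, 3 and 4 were followed in rat fat together with Nr1i2 and Nr1i3, which encode the xenobiotic receptors PXR and CAR. Members were taken by symbol, as every gene of the count tables named Cyp2, Cyp3 or Cyp4 followed by 1 letter and a number, plus both receptors. This gave 51 of 15319 genes, of which 30 were in family 2, 4 in family 3 and 15 in family 4. A further 24 P450 symbols of the tables belonged to other families or had another form, as Cyp2c6v1 has, and were not members.

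RNA-seq libraries came from 3 fat depots, brown fat (BAT), subcutaneous fat (SAT) and visceral fat (VAT), of 24 adolescent rats of the outbred Sprague-Dawley stock, for which the labels name no altered allele. PCB 52 rats breathed air that had passed over beads coated with this congener, a polychlorinated biphenyl with chlorines ortho to the bond between its rings. They did so through the nose, at 12 L/min, for 4 h a day over 28 days. Sham rats were assigned at random from the same animals, and the labels do not say what air they breathed or what PCB level the exposed rats received. All rats arrived at 28 days of age and had 8 days to acclimate. Males started exposure when 39 days old and females when 42 days old. Males carry odd and females even numbers, and the sexes were deposited in separate tables, so sex cannot be told apart from age at the start or from the table. The 12 groups were PCB 52 and sham rats of each sex in each depot, with 6 libraries each except male VAT PCB 52 with 5 and female SAT sham with 5. Libraries with the same number in different depots were read as the same rat, which the labels do not state.

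P450 enzymes are membrane-bound haem proteins that insert an oxygen atom into their substrates, with electrons passed on by the reductase encoded by Por. Families 2 and 3 are best known from liver, where they oxidise drugs, steroids and pollutants and where CAR and PXR switch on Cyp2b and Cyp3a genes when such chemicals arrive. Family 4 enzymes mostly hydroxylate fatty acids and eicosanoids at their far end, and several Cyp2 enzymes turn arachidonic acid into epoxides. PCBs with ortho chlorines are known inducers of hepatic Cyp2b genes in rats, and fat is the tissue in which PCBs are mainly stored.

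Total counts per library ran from 4604116 to 9707132, so that a count of 0 allows a level of up to 0.309 to 0.652 CPM, the count scaled to a common library size, a limit that covers counting error only. The depot labels were checked against marker lists. The brown adipocyte list, with 9 of 10 markers measured, summed to between 295 and 15913 CPM in BAT, 9.61 and 304 CPM in SAT, and 33.1 and 652 CPM in VAT. The adipocyte list, with 11 of 12 measured and none at 0 in any library, summed to between 25559 and 52865 CPM in BAT, 5489 and 68865 CPM in SAT, and 30174 and 76895 CPM in VAT. The mammary epithelium list, with all 12 measured, summed to between 11.9 and 309365 CPM in SAT, against at most 8.12 CPM in BAT and 613 CPM in VAT. It was at 3547 CPM or more in every female SAT library, and at 72699 CPM or more in 6 of the 12 male ones. A few libraries stood apart from their groups. They were female BAT PCB 52 rat 24, the BAT library with the lowest brown marker sum, 295 CPM, female SAT sham rat 8, in which 705 of 10355 commonly expressed genes were at 0, male SAT PCB 52 rat 19, female VAT sham rats 4 and 8, male VAT sham rat 11 and male VAT PCB 52 rats 13 and 23. In the VAT library of male PCB 52 rat 13, 559 of the 10355 genes were at 0. The skeletal muscle list, with 16 of 17 measured, moved with depot in sham rats, at 381 to 67320 CPM in BAT, 49.0 to 23776 CPM in SAT and 31.8 to 1410 CPM in VAT, and its part in the depot differences was not tested. It was lowest among sham BAT libraries in female rat 4, at 381 CPM, and among those of males in rat 7, at 924 CPM. Calls that are lost or results that move by over 1.5 times without the libraries that stood apart are also given without them.

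A minority of these genes reached 1 CPM in rat fat, though only 2 of the 51 had no read in any library. Counting a member as detected in a group when its median was at least 1 CPM, 14 to 19 of the 51 members were detected per group, 27.5% to 37.3%, while the share over all 15319 genes was 73.8% to 77.3%. In all, 21 members were detected in at least 1 group, 12 in every group and 30 in none. The 12 found everywhere were Cyp2d4, Cyp2j3, Cyp2j4, Cyp2t1, Cyp2u1, Cyp4b1, Cyp4f5, Cyp4f6, Cyp4f17, Cyp4f37, Cyp4v3 and Nr1i3. Levels of different genes are not ranked against each other here, because counts were not divided by transcript length.

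Several drug-metabolising forms known from rat liver were almost without reads, though not all were, as Cyp2e1 had 8738 reads in 69 libraries. Cyp2c11, the male-specific testosterone hydroxylase of rat liver, had 23 reads over all 70 libraries, and Cyp2a2 and Cyp2c7 had 0. Cyp3a2, a liver steroid hydroxylase that PXR induces, had 3 reads, while Cyp3a18 had 29 and Cyp3a9 had 68. Cyp4a1, the fatty acid hydroxylase used as a marker of PPAR alpha activation in liver, had 148 reads spread over 50 libraries. In total 24 members had under 100 reads. The hepatocyte list, with all 12 markers measured and 2 to 9 of them at 0 in a library, summed to between 19.97 and 615 CPM, of which 1 gene, Alb, which encodes serum albumin, made up a median of 95.9%.

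**Figure D1:**
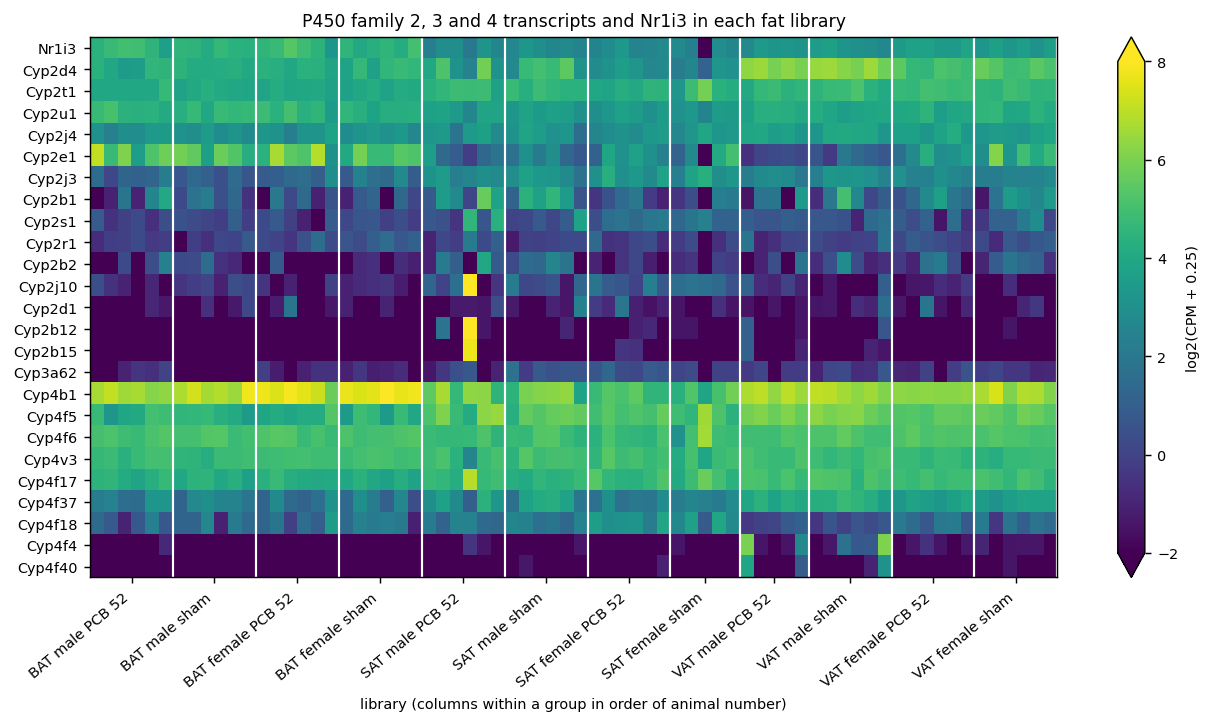
Level of each member detected in at least 1 group, with 4 rarer members, in each of the 70 libraries, as log2(CPM + 0.25). Columns are libraries in order of rat number within the 12 groups, and white lines part the groups. Most rows are even within a depot, Cyp4b1, Cyp2e1 and Nr1i3 are brighter in BAT, and Cyp2b12, Cyp2b15 and Cyp2j10 are bright in male SAT PCB 52 rat 19 alone.

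Depots of sham rats were compared first, which asks in which depot each enzyme is expressed without PCB 52. A member was called when its adjusted p was under 0.05 in edgeR's quasi-likelihood test over all genes tested. In each sex 17 of the 51 members passed the filter on low counts and were tested, and 34 were not. In BAT against SAT 9 members were called in males, 4 higher and 5 lower, and 9 in females, 5 higher and 4 lower, where 55.3% of all genes tested were called in males (28% higher, 27.3% lower) and 47.6% in females (20.3% higher, 27.3% lower). In BAT against VAT 10 were called in males, 4 higher and 6 lower, and 5 in females, 1 higher and 4 lower, where 49.8% of all genes were called in males (26.5% higher, 23.3% lower) and 25.5% in females (14.3% higher, 11.2% lower). In SAT against VAT 3 were called in males, 1 higher and 2 lower, and 6 in females, 2 higher and 4 lower, where 23% of all genes were called in males (12.4% higher, 10.6% lower) and 39.7% in females (23.2% higher, 16.5% lower). The members' shares were near those of all genes and are not a result about the members. The comparisons share their sham libraries. Of the 42 calls, which fell on 14 members, 29 had groups that did not overlap, where 56.2% of all calls over all genes in these 6 comparisons did not, and 33 held when each library in turn was left out. In BAT against SAT 5 members, Nr1i3, Cyp2u1, Cyp2j3, Cyp4b1 and Cyp4f5, were called in both sexes, all in the same direction. The shares of all genes called in both sexes, or held without each library in turn, were not counted. Neither the 5 nor the 33 is therefore a result about the members. In bulk tissue, fewer cells of a type and less RNA per cell cannot be told apart.

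**Figure D2:**
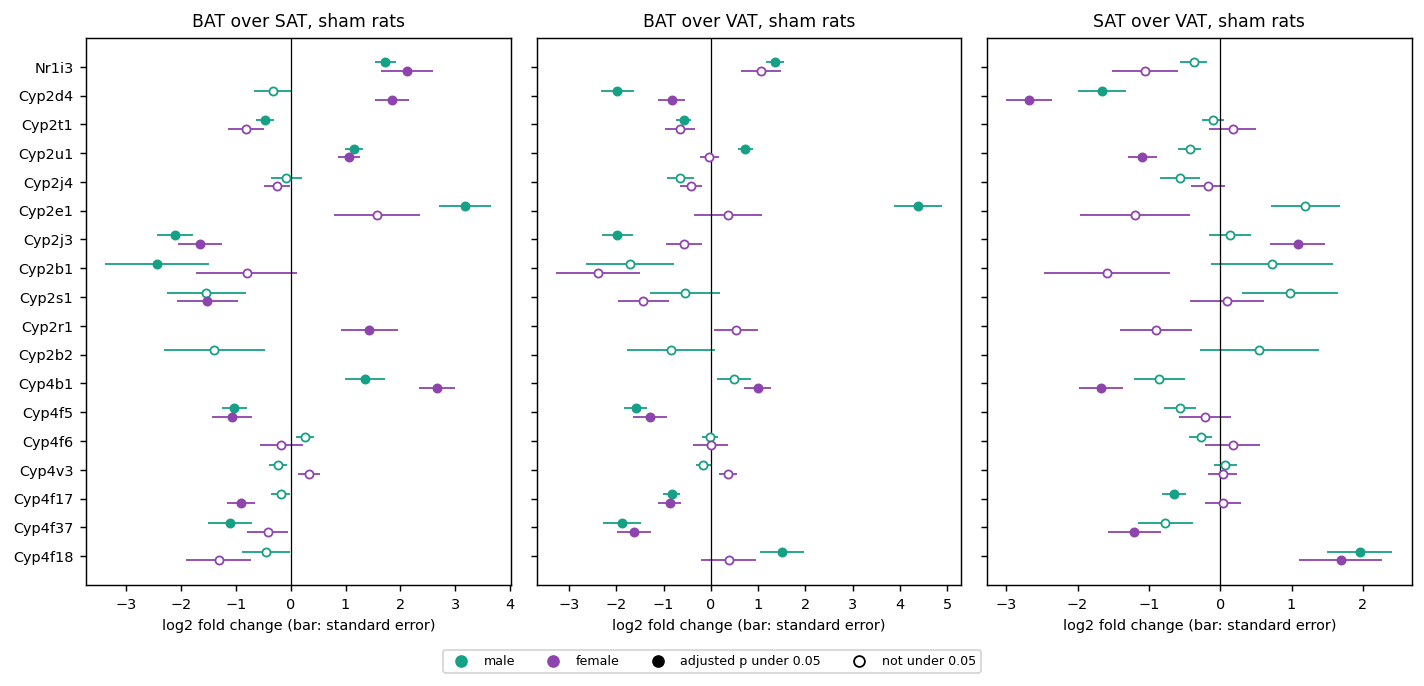
Log2 fold changes of BAT over SAT, BAT over VAT and SAT over VAT in sham rats for the members tested, with standard errors as bars, males above females in each row. Filled points had an adjusted p under 0.05. Nr1i3, Cyp2u1 and Cyp4b1 lie to the right of 0 in BAT over SAT in both sexes, and Cyp2j3 and Cyp4f5 to the left.

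Of the receptors, Nr1i3 was expressed in every depot and Nr1i2 was nearly absent. Nr1i3 levels were 17.4 to 25.2 CPM in male sham BAT, median 21.6 CPM, against 5.39 to 9.62 CPM in male sham SAT, median 6.27 CPM, and 6.04 to 12.6 CPM in male sham VAT, median 8.26 CPM. In female sham rats they were 16.1 to 31.8 CPM in BAT, median 21.2 CPM, against 6.72, 4.78, 0, 7.18 and 5.84 CPM in SAT of rats 2, 6, 8, 10 and 12, and 8.37 to 12.5 CPM in VAT, median 10.5 CPM. BAT overlapped neither other depot in either sex, and the value of 0 belongs to rat 8, whose library stood apart. The log2 fold change of BAT over SAT was 1.73 (SE 0.19, adjusted p = 6.05e-07) in males and 2.12 (SE 0.48, adjusted p = 0.00151) in females. BAT over VAT gave 1.35 (SE 0.18, adjusted p = 9.88e-06) in males and 1.06 (SE 0.43, adjusted p = 0.0808) in females, which missed the threshold. In the RefSeq annotation the span of Nr1i3 overlaps that of Tomm40l, which encodes a mitochondrial import channel protein. Strand use in counting is not given in the sources used here, so reads of the pair cannot be told apart. Tomm40l, looked up because of this overlap, was higher in male sham BAT than in male sham SAT by a log2 fold change of 1.84 (SE 0.15, adjusted p = 1.37e-08). Nr1i2 had 43 reads in all, in 11 libraries, among them 13, 4, 3 and 11 reads in VAT of male sham rats 5, 7, 9 and 11.

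The phenobarbital-responsive pair Cyp2b1 and Cyp2b2, the classical CAR targets of rat liver, was low in most libraries and high in a few. Cyp2b1 levels in male SAT were 0.806 to 50.3 CPM in PCB 52 rats, median 8.75 CPM, and 1.31 to 23.7 CPM in sham rats, median 12.2 CPM. In female SAT they were 0.228 to 3.77 CPM in PCB 52 rats, median 0.888 CPM, and 0.472, 1.08, 0, 4.72 and 3.93 CPM in sham rats 2, 6, 8, 10 and 12. The spread within each group was wider than any difference between PCB 52 and sham medians in SAT. In male sham rats Cyp2b1 was lower in BAT, at 0.443 to 4.51 CPM, than in SAT, with a log2 fold change of -2.44 (SE 0.94, adjusted p = 0.0356). That call was lost without any 1 of 6 libraries, BAT rats 1, 7, 9 and 11 and SAT rats 3 and 7, with adjusted p up to 0.0721. Cyp2b2, whose sequence is close enough to that of Cyp2b1 that reads may be split between them, had its highest level of a group in the same library as Cyp2b1 in male BAT PCB 52 (rat 23), male SAT PCB 52 (rat 21) and male VAT sham (rat 5). In those 3 libraries Cyp2b1 stood at 16.1, 50.3 and 31.6 CPM and Cyp2b2 at 4.81, 15.9 and 6.99 CPM.

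Of the other Cyp2b genes with reads, 3 were concentrated in a single library, and the fourth, Cyp2b3, had 8 reads in 2 libraries. In SAT of male PCB 52 rat 19, Cyp2b12, an arachidonic acid epoxygenase known from rat sebaceous glands, reached 9203 CPM, Cyp2b15 reached 213 CPM and Cyp2b21 reached 9.99 CPM. Elsewhere Cyp2b12 was at most 3.27 CPM, Cyp2b15 at most 1.82 CPM and Cyp2b21 at most 0.537 CPM. Promoter windows of Cyp2b1, Cyp2b2, Cyp2b12, Cyp2b15 and Cyp2b21 are shown because the first 2 were high in the same libraries, as were the other 3. They run from 100 bases before to 50 bases after the annotated start, 5′ to 3′ on the gene's strand, from RefSeq on the GRCr8 build, and capitals mark the string ATAAAAGAT.
Cyp2b1, chr1:90646019-90646168, plus strand: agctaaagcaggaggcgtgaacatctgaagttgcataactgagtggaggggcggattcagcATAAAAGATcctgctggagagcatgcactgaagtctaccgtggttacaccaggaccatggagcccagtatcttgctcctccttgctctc
Cyp2b2, chr1:90722181-90722330, plus strand: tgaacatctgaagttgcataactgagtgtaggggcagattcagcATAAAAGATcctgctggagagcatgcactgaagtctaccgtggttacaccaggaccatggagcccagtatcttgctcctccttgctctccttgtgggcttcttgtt
Cyp2b12, chr1:91135194-91135343, plus strand: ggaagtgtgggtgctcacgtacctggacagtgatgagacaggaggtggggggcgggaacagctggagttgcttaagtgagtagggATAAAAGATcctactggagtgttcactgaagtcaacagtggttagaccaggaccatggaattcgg
Cyp2b15, chr1:91221765-91221914, plus strand: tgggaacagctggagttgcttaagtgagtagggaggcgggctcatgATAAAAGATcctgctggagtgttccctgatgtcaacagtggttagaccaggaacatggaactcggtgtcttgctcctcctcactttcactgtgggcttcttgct
Cyp2b21, chr1:91042703-91042852, minus strand: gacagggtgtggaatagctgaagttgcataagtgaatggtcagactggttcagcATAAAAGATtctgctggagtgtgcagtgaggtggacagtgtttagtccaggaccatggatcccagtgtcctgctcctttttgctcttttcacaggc
The string was searched on both strands of windows with these bounds. It overlaps no other motif that was searched, and was chosen after the sequences had been seen. It occurs in 52 of 27457 promoter windows, 0.189%, and in 5 of the 46 members that have one, which are these 5 and not Cyp2b3. Over 300 promoter bases, of which the windows are a part, Cyp2b1 is 86.8% identical to Cyp2b2, and Cyp2b12 is 65.4% identical to Cyp2b15. A match is a run of letters and not a site shown to be used.

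Among the other family 2 enzymes, Cyp2e1, Cyp2u1 and Cyp2r1 were higher in BAT, and Cyp2j3, Cyp2s1 and Cyp2t1 lower, in at least 1 sex. Cyp2e1, which oxidises ethanol, acetone and fatty acids, had levels of 12.7 to 58.0 CPM in male sham BAT, median 42.6 CPM, against 1.45 to 7.90 CPM in SAT, median 3.58 CPM, and 0.558 to 3.73 CPM in VAT, median 1.66 CPM. Neither SAT nor VAT of males reached the lowest BAT library, and the log2 fold changes were 3.18 over SAT (SE 0.48, adjusted p = 2.64e-05) and 4.37 over VAT (SE 0.51, adjusted p = 1.58e-06). In female sham rats BAT held 16.5 to 59.97 CPM, median 32.2 CPM, against 2.00, 6.58, 0, 17.2 and 32.4 CPM in SAT and 7.73 to 71.3 CPM in VAT, median 21.9 CPM. These female groups overlapped, and the log2 fold changes of 1.57 over SAT (SE 0.78, adjusted p = 0.111) and 0.37 over VAT (SE 0.72, adjusted p = 0.758) missed the threshold.

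Cyp2d4, a Cyp2d form known from rat brain, had its highest levels in VAT. In male sham rats it stood at 16.6 to 21.6 CPM in BAT, 6.33 to 44.6 CPM in SAT and 55.5 to 93.4 CPM in VAT, and VAT overlapped neither other depot. In female sham rats it stood at 13 to 27.5 CPM in BAT, at 4.48, 5.74, 1.98, 8.92 and 7.98 CPM in SAT of rats 2, 6, 8, 10 and 12, and at 29.0 to 50.3 CPM in VAT, so that the 3 depots did not overlap. SAT over VAT gave a log2 fold change of -1.66 (SE 0.34, adjusted p = 0.00302) in males and -2.68 (SE 0.32, adjusted p = 6.87e-06) in females. BAT over VAT gave -1.98 (SE 0.35, adjusted p = 0.000134) in males and -0.83 (SE 0.28, adjusted p = 0.039) in females, and the female call was lost without any 1 of 8 libraries, BAT or VAT rats 2 and 12, BAT rats 6 and 8 and VAT rats 4 and 10, with adjusted p up to 0.0933. BAT over SAT gave 1.85 (SE 0.31, adjusted p = 0.000139) in females and was not called in males. Within male SAT, the libraries with the highest Cyp2d4 levels, PCB 52 rat 21 at 58.4 CPM and sham rat 9 at 44.6 CPM, had the lowest mammary marker sums, 15 and 11.9 CPM. The libraries with the highest mammary sums, PCB 52 rat 17 at 309365 CPM and sham rat 1 at 278137 CPM, held 8.66 and 6.33 CPM of Cyp2d4. Across male SAT libraries the adipocyte list ran from 5749 to 40218 CPM, and the part of either cell type in the Cyp2d4 level was not tested.

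Cyp2u1, a hydroxylase of long-chain fatty acids, had levels of 15.4 to 26.5 CPM in male sham BAT against 7.75 to 13.2 CPM in SAT and 12.0 to 17.8 CPM in VAT. BAT and SAT did not overlap, and BAT over SAT gave a log2 fold change of 1.16 (SE 0.16, adjusted p = 1.16e-05) in males and 1.06 (SE 0.21, adjusted p = 0.000499) in females. Cyp2j3, an arachidonic acid epoxygenase of the rat heart, went the other way, at 1.11 to 2.57 CPM in male sham BAT against 3.15 to 13.1 CPM in SAT and 4.74 to 9.49 CPM in VAT. Its log2 fold changes in males were -2.11 over SAT (SE 0.32, adjusted p = 3.55e-05) and -1.98 over VAT (SE 0.32, adjusted p = 6.87e-05). In female sham rats BAT held 1.54 to 6.70 CPM of Cyp2j3, overlapping SAT at 4.60, 13.2, 19.1, 7.38 and 9.65 CPM, with a log2 fold change of -1.65 (SE 0.40, adjusted p = 0.00251). Female SAT over VAT gave 1.09 for Cyp2j3 (SE 0.39, adjusted p = 0.0333), a call lost without any 1 of 7 libraries, SAT rats 6 and 8 and VAT rats 2, 4, 6, 8 and 10, with adjusted p up to 0.0851. Without the libraries that stood apart it was 0.70 (adjusted p = 0.187), and with the rat as a block 1.02 (adjusted p = 0.0703). Cyp2u1 was also higher in male BAT than VAT, by 0.73 (SE 0.16, adjusted p = 0.000981), and lower in female SAT than VAT, with -1.09 (SE 0.21, adjusted p = 0.000571). The related epoxygenase Cyp2j4 was at 2.76 to 16.8 CPM in male sham rats over all 3 depots and was not called in any depot comparison.

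Of the weaker calls in family 2, those of Cyp2r1 and Cyp2s1 depended on single libraries and those of Cyp2t1 did not. Cyp2r1, a vitamin D 25-hydroxylase, was at 1.01 to 2.76 CPM in female sham BAT against 0.589, 0.957, 0, 0.410 and 0.953 CPM in SAT, levels of a few reads, with a log2 fold change of 1.44 (SE 0.51, adjusted p = 0.0282). The span of Cyp2r1 overlaps that of the abundant Pde3b, a phosphodiesterase of adipocytes, which was higher in female sham BAT than SAT by 3.66 on the log2 scale (SE 0.35, adjusted p = 3.13e-07), and the call was lost without BAT rat 8 or without SAT rat 10 (adjusted p = 0.0681 and 0.0602). Cyp2s1, an enzyme of lining tissues such as airway and skin, was at 0.636 to 1.38 CPM in female sham BAT against 2.36, 3.47, 4.83, 1.95 and 2.02 CPM in SAT. Its log2 fold change of -1.52 (SE 0.55, adjusted p = 0.0318) lost its call without any 1 of 5 libraries, BAT rats 2, 8 and 12 and SAT rats 6 and 8, with adjusted p up to 0.0709, and was -1.23 (adjusted p = 0.0852) without the libraries that stood apart. Cyp2t1 was lower in male sham BAT, at 13.2 to 18.8 CPM, than in SAT at 19.4 to 29.0 CPM, by a log2 fold change of -0.47 (SE 0.16, adjusted p = 0.0203), and than in VAT at 17.1 to 35.8 CPM, by -0.57 (SE 0.16, adjusted p = 0.00687). Both calls held without each library in turn, with adjusted p up to 0.0394 over SAT and 0.0149 over VAT. Its span overlaps that of Egln2, an oxygen sensor, which moved the opposite way with 0.49 for BAT over SAT (SE 0.16, adjusted p = 0.014).

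In family 3 only Cyp3a62, known from rat liver and intestine, was detected in any group. Its level was 0.575 to 3.16 CPM in male sham SAT, median 1.33 CPM, and 0.861 to 2.38 CPM in female PCB 52 SAT, median 1.34 CPM, and the other 10 groups had medians under 1 CPM. Male sham BAT had no read of it in any of 6 libraries.

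In family 4, Cyp4b1 was highest in BAT and several Cyp4f genes were lowest there. Cyp4b1, a fatty acid hydroxylase best known from lung, where it activates plant toxins, had levels of 174 to 259 CPM in female sham BAT, median 205 CPM, against 20.3, 38.4, 14, 33.5 and 57.6 CPM in SAT of rats 2, 6, 8, 10 and 12, and 66.4 to 167 CPM in VAT, median 107 CPM. The lowest BAT library lay above every SAT and VAT library in females, and the log2 fold changes were 2.67 over SAT (SE 0.32, adjusted p = 4.29e-06) and 0.99 over VAT (SE 0.28, adjusted p = 0.0161). In male sham rats BAT held 89.5 to 221 CPM, median 111 CPM, against 13.8 to 83.0 CPM in SAT, median 66.8 CPM, and 69.2 to 129.9 CPM in VAT, median 96.8 CPM. Male BAT over SAT gave 1.35 (SE 0.36, adjusted p = 0.00439). The sham BAT libraries lowest in muscle markers were female rat 4 and male rat 7. They held 174 and 114 CPM of Cyp4b1. The 174 CPM is the lowest level in female sham BAT. The part of muscle in the Cyp4b1 levels was not tested. BAT and VAT overlapped in males, with 0.49 for BAT over VAT (SE 0.35, adjusted p = 0.26). Female SAT over VAT gave -1.67 (SE 0.31, adjusted p = 0.000455). As with Cyp2d4, the lowest male sham SAT libraries, rat 11 at 13.8 CPM and rat 1 at 21.8 CPM of Cyp4b1, were among those highest in mammary markers, at 208734 and 278137 CPM. In BAT, female PCB 52 rat 24 held 54.1 CPM of Cyp4b1 with its 295 CPM of brown markers, against 147 to 235 CPM of Cyp4b1 in the other 5 rats of its group. That library was also highest of its group in the muscle gene Ckm, at 7092 CPM against at most 3457 CPM in the other 5. The part of brown fat cells or of muscle in its Cyp4b1 level was not tested.

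The Cyp4f enzymes inactivate leukotriene B4 and hydroxylate arachidonic acid. Cyp4f5 had levels of 10.6 to 25.4 CPM in male sham BAT against 19.5 to 53.5 CPM in SAT and 42.7 to 77.0 CPM in VAT, and in females 10.8 to 29.1 CPM in BAT against 37.6 to 59.0 CPM in VAT. BAT over VAT gave a log2 fold change of -1.59 (SE 0.24, adjusted p = 2.32e-05) in males and -1.29 (SE 0.36, adjusted p = 0.0132) in females, without overlap in either sex. Over SAT it gave -1.03 (SE 0.23, adjusted p = 0.00129) in males. In females BAT over SAT gave -1.07 (SE 0.37, adjusted p = 0.0236), with SAT at 29.4, 23.4, 93.9, 36.3 and 21.3 CPM in rats 2, 6, 8, 10 and 12. That call was lost without BAT rat 2 or BAT rat 8 (adjusted p = 0.0536 for each) and without SAT rat 8, which left a log2 fold change of -0.45 (adjusted p = 0.136). With the rat as a block it was -0.97 (adjusted p = 0.0632). Cyp4f37 was likewise lower in BAT than in VAT, at 2.11 to 7.58 CPM against 11.9 to 27.4 CPM in male sham rats and 1.06 to 7.54 CPM against 8.41 to 13.9 CPM in female sham rats. Its log2 fold changes were -1.88 (SE 0.41, adjusted p = 0.000944) in males and -1.63 (SE 0.36, adjusted p = 0.00323) in females, and the groups did not overlap. Male BAT over SAT gave -1.10 for Cyp4f37 (SE 0.40, adjusted p = 0.0275), lost without BAT rat 1, SAT rat 5 or SAT rat 7 (adjusted p up to 0.0697), and female SAT over VAT gave -1.21 (SE 0.37, adjusted p = 0.0166), and -1.15 (adjusted p = 0.0525) with the rat as a block. Cyp4f17 was lower in BAT than in VAT by less, with -0.83 (SE 0.17, adjusted p = 0.000727) in males and -0.87 (SE 0.24, adjusted p = 0.0142) in females. It was also called lower in female BAT than SAT, at -1.01 to -0.565 over left-out libraries (adjusted p up to 0.0195). Without the libraries that stood apart that value was -0.565 (adjusted p = 0.023). Male SAT over VAT was called as well, at -0.74 to -0.58 over left-out libraries (adjusted p up to 0.0344).

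Cyp4f18, which hydroxylates leukotriene B4 in mouse neutrophils, was higher in SAT than in VAT. Its levels were 2.28 to 5.70 CPM in male sham SAT against 0.499 to 1.41 CPM in VAT, without overlap, and the log2 fold change was 1.96 (SE 0.46, adjusted p = 0.00676). In female sham rats SAT held 6.13, 12.8, 1.54, 14.8 and 6.31 CPM in rats 2, 6, 8, 10 and 12 against 0.495 to 4.06 CPM in VAT, with 1.69 (SE 0.59, adjusted p = 0.0294), a call lost without any 1 of 5 libraries, SAT rats 6 and 10 and VAT rats 4, 8 and 12, with adjusted p up to 0.0915. With the rat as a block it was 1.53 (adjusted p = 0.0856). Male BAT over VAT gave 1.51 (SE 0.46, adjusted p = 0.0119), which became 1.13 (adjusted p = 0.0508) without BAT rat 5. Cyp4f6 and Cyp4v3, the counterpart of a human fatty acid hydroxylase mutated in a retinal dystrophy, were not called in any depot comparison. Cyp4f6 was at 28.3 to 41.1 CPM in male sham BAT, 21.9 to 40.4 CPM in SAT and 30.5 to 48.4 CPM in VAT, with no depot apart from the others. The counts of close Cyp4f relatives, which sit side by side on chromosome 7, may be split between them.

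**Figure D3:**
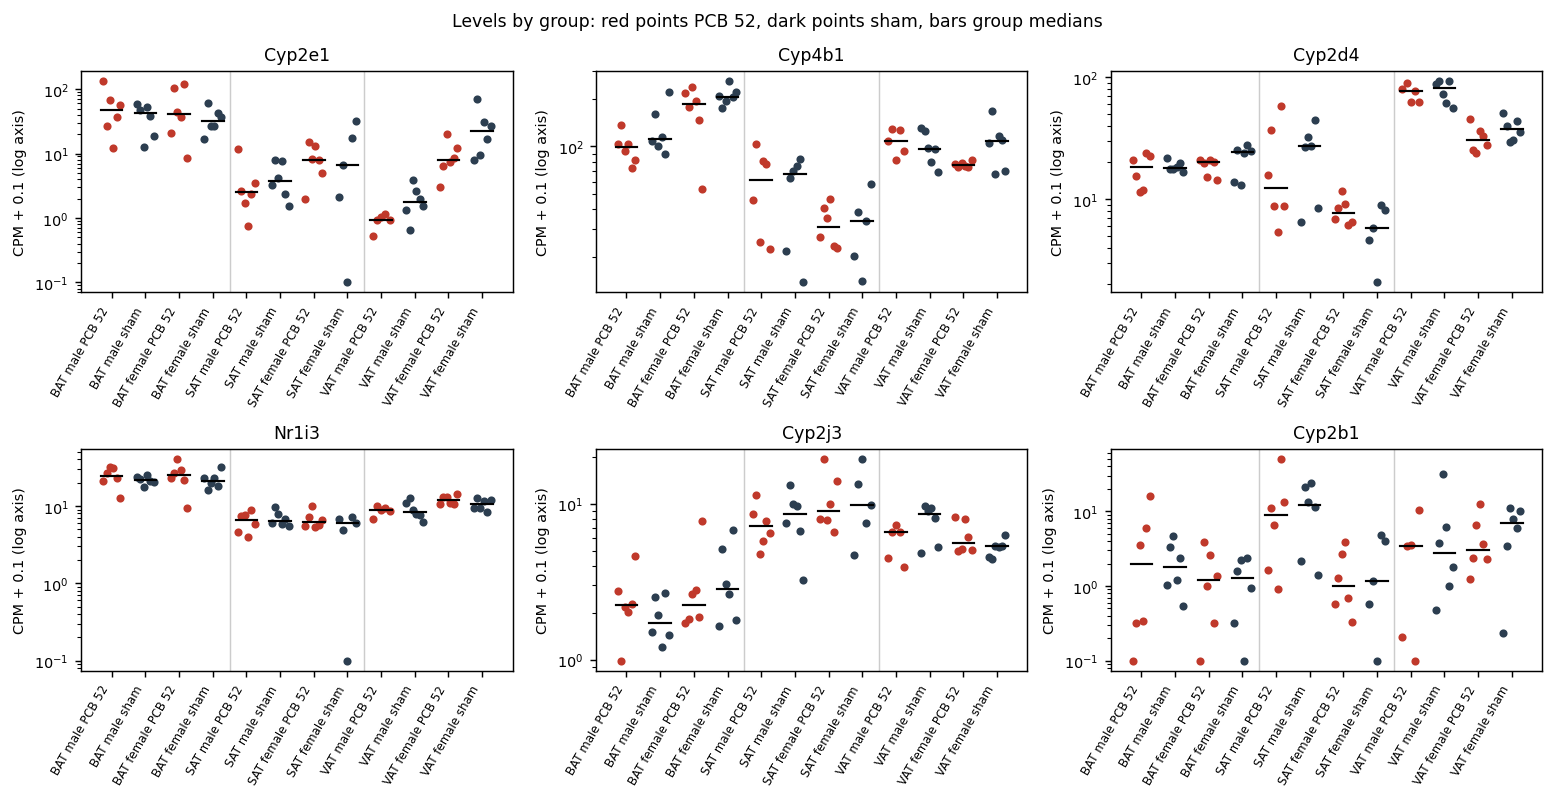
Levels of Cyp2e1, Cyp4b1, Cyp2d4, Nr1i3, Cyp2j3 and Cyp2b1 in CPM + 0.1 on a log axis, 1 point per library in the 12 groups, red for PCB 52 and dark for sham, with bars at group medians and grey lines between depots. Within each depot and sex the red and dark points overlap. Cyp2e1 in VAT is lower in males than in females.

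Sham males and sham females were then compared within each depot. In VAT 3 of 16 members tested were called, 2 higher and 1 lower in males, where 11.5% of all genes were called. In BAT 0 of 14 members were called, where 0.0652% of all genes were, and 3 had an unadjusted p under 0.05, where 6.78% of all genes did. In SAT 0 of 17 were called, where 1.09% of all genes were, and 3 had an unadjusted p under 0.05, where 19.6% of all genes did. In SAT DESeq2 called 2 of the 16 members it gave an adjusted p, Cyp2d4 (log2 fold change 2.07, adjusted p = 0.00334) and Cyp2b1 (2.58, adjusted p = 0.0446). DESeq2 called 8.48% of all genes in SAT and 0.59% in BAT, where it called 0 members.

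Cyp2e1 showed the widest sex difference of the 3 called in VAT. Its levels in VAT were 1.25, 0.558, 3.73, 2.51, 1.90 and 1.41 CPM in male sham rats 1, 3, 5, 7, 9 and 11, against 7.73, 71.3, 9.31, 30.5, 16.9 and 26.9 CPM in female sham rats 2, 4, 6, 8, 10 and 12. The groups did not overlap, and the log2 fold change of males over females was -3.78 (SE 0.57, adjusted p = 0.00167). It was -2.91 (adjusted p = 0.00812) without the libraries that stood apart, among them the 2 highest, female rats 4 and 8, whose brown marker sums of 652 and 344 CPM exceeded the 41.6 to 111 CPM of all male sham libraries and the 46.9 to 66.7 CPM of the other female ones. Single markers of other organs also moved with sex in VAT. The kidney and adrenal list, with all 9 markers measured and 3 to 7 at 0, summed to 37.6 to 83.3 CPM in males and 149 to 379 CPM in females, but 1 gene, Star, which acts in steroid synthesis in adrenal and gonads, stood at 1.08 to 20.7 CPM in males and 109 to 345 CPM in females, and the rest of the list at 33.5 to 76.2 CPM in males and 15.8 to 44.0 CPM in females. The hepatocyte list, with 2 to 7 of 12 markers at 0, summed to overlapping ranges of 31.7 to 187 CPM in males and 113 to 615 CPM in females, of which Alb made up 6.04 to 181 CPM in males and 98.2 to 602 CPM in females. The part of such tissues in the Cyp2e1 difference was not tested. The PCB 52 rats, which that test did not use, also stood apart by sex, with 0.429, 0.825, 0.937, 1.06 and 0.833 CPM of Cyp2e1 in the VAT of male rats 13, 15, 17, 19 and 23 against 2.97 to 19.8 CPM in that of females.

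Cyp2d4 and Cyp4f37 were higher in male VAT. Cyp2d4 stood at 55.5 to 93.4 CPM in male sham VAT, median 80.8 CPM, against 29.0 to 50.3 CPM in female sham VAT, median 37.5 CPM, without overlap, and the log2 fold change was 1.04 (SE 0.17, adjusted p = 0.00245). In PCB 52 rats Cyp2d4 was likewise at 62.3 to 89.6 CPM in male VAT against 24.0 to 44.8 CPM in female VAT. Cyp4f37 stood at 11.9 to 27.4 CPM in male sham VAT against 8.41 to 13.9 CPM in female sham VAT, with a log2 fold change of 0.72 (SE 0.19, adjusted p = 0.0259), and its call was lost without female rat 2 or male rat 5 (adjusted p = 0.0504 and 0.0616). Without male sham rat 11 the number of members called in VAT was 5, and the share of all genes called in that fit was not counted.

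The PCB 52 rats of each sex were then set against the sham rats of that sex, depot by depot, which asks whether inhaled PCB 52 changed P450 expression in fat. No member was called in any of the 6 comparisons by edgeR, out of 15, 17 and 15 members tested in male BAT, SAT and VAT and 14, 17 and 17 in female BAT, SAT and VAT. The share of all genes called was 0% in each of the 6. DESeq2 called none either, but gave an adjusted p for only 2 of the 15 members in male BAT, and for 16, 14, 14, 17 and 17 in male SAT, male VAT, female BAT, female SAT and female VAT. Its share of all genes called was 0.137% in male BAT, 0.0179% in male VAT and 0.332% in female VAT, and 0% in the others. Over the 95 member tests by edgeR the PCB 52 and sham groups overlapped every time, where they did not overlap in 0.344% of the tests of all genes. Of the 95, 2 had an unadjusted p under 0.05, where 5.95% of the tests of all genes did, and the smallest adjusted p was 0.479. With both sexes in 1 fit 0 of 15 members were called in BAT, 0 of 19 in SAT and 0 of 19 in VAT, where 0.00906%, 0% and 0% of all genes were called. In these fits 0, 0 and 1 members had an unadjusted p under 0.05, as had 1215 of 11032, 333 of 12157 and 804 of 11664 genes tested. The interaction of sex and treatment called 0 members in each depot by both tools. Of all genes it called 0% in each depot by edgeR, and 0%, 0% and 0.00862% in BAT, SAT and VAT by DESeq2. By edgeR 0, 2 and 3 members had an unadjusted p under 0.05 in BAT, SAT and VAT, as had 266 of 11032, 792 of 12157 and 1243 of 11664 genes tested. The median standard error of a member's log2 fold change was 0.19 in male BAT, 0.39 in male SAT, 0.19 in male VAT, 0.25 in female BAT, 0.39 in female SAT and 0.17 in female VAT, so that SAT allows the widest undetected differences.

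**Figure D4:**
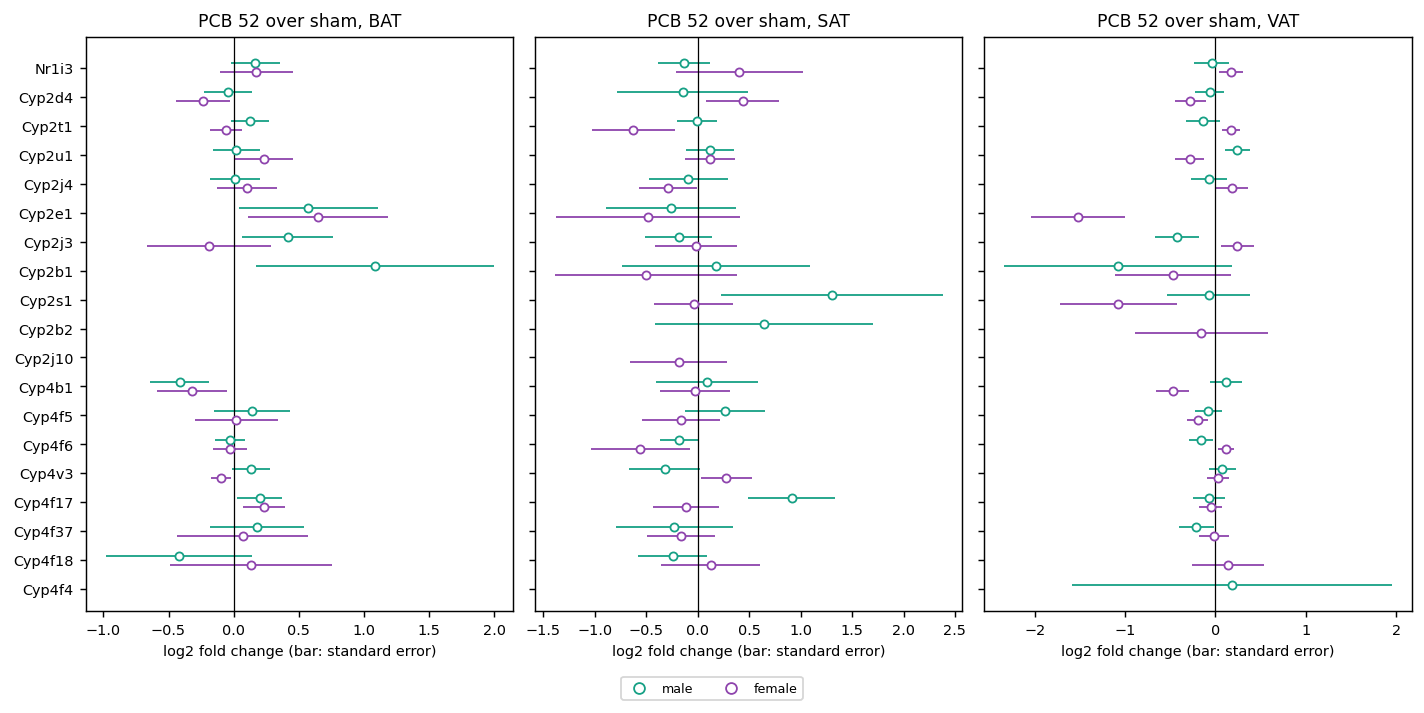
Log2 fold changes of PCB 52 over sham in BAT, SAT and VAT for the members tested, with standard errors as bars, males above females in each row. All points are open because none had an adjusted p under 0.05. Cyp2e1 and Cyp4b1 in female VAT lie to the left of 0, and the widest bars belong to Cyp4f4 in male VAT and to Cyp2b1 and Cyp2s1.

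Cyp2e1 in VAT had the smallest p of any member under PCB 52. In female VAT its levels were 2.97, 6.25, 19.8, 7.24, 8.28 and 12.3 CPM in PCB 52 rats 14 to 24, against 7.73, 71.3, 9.31, 30.5, 16.9 and 26.9 CPM in sham rats 2 to 12. The groups overlapped, and the log2 fold change was -1.52 (SE 0.52, unadjusted p = 0.0114, adjusted p = 0.479). It was -0.70 (adjusted p = 0.793) without sham rats 4 and 8, and -0.98 without rat 4 alone. Brown marker sums in female VAT were 33.1 to 96.7 CPM in PCB 52 rats and 46.9 to 652 CPM in sham rats, with 3 to 5 and 1 to 4 of the 9 markers at 0, and their part in the result was not tested. In male VAT Cyp2e1 had 0.429 to 1.06 CPM in PCB 52 rats and 0.558 to 3.73 CPM in sham rats and did not pass the filter on low counts. Over both sexes the log2 fold change was -1.42 (SE 0.38, unadjusted p = 0.000988, adjusted p = 0.475), and -0.81 without the libraries that stood apart. Cyp4b1 in female VAT had 73.5 to 81.3 CPM in PCB 52 rats and 66.4 to 167 CPM in sham rats, with a log2 fold change of -0.48 (SE 0.18, unadjusted p = 0.0191, adjusted p = 0.479) that was -0.22 without sham rats 4 and 8.

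The CAR targets gave no call. Cyp2b1 in male BAT had 0 to 16.1 CPM in PCB 52 rats, median 1.85 CPM, and 0.443 to 4.51 CPM in sham rats, median 1.69 CPM, with a log2 fold change of 1.09 (SE 0.91, adjusted p = 0.669) that became -0.02 without PCB 52 rat 23. In male SAT it gave 0.18 (SE 0.91, adjusted p = 1), in male VAT -1.08 (SE 1.26, adjusted p = 0.846) and in female VAT -0.47 (SE 0.64, adjusted p = 0.8). Nr1i3 itself had 12.4 to 31.4 CPM in PCB 52 rats and 17.4 to 25.2 CPM in sham rats of male BAT, with 0.17 (SE 0.19, adjusted p = 0.759). In female BAT it had 9.26 to 40.5 CPM in PCB 52 rats and 16.1 to 31.8 CPM in sham rats, with 0.17 (SE 0.28, adjusted p = 0.999), and the lowest value belongs to rat 24.

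In SAT the largest values under PCB 52 rested on single libraries. Cyp2j10 had 2.16, 0.756, 2.89, 465, 0 and 0.467 CPM in male PCB 52 rats 13 to 23 against 0.134 to 4.27 CPM in male sham rats, and 0.753 to 4.71 CPM in female PCB 52 rats against 2.83, 3.23, 2.85, 2.46 and 1.19 CPM in female sham rats. Only male PCB 52 rat 19 lies outside the sham range on the high side by more than a few CPM. The difference of the log2 fold change in males from that in females was 5.71 (SE 1.96, unadjusted p = 0.00795, adjusted p = 0.754) and became -0.26 without the libraries that stood apart. Cyp4f17 in male SAT had 18.3 to 121 CPM in PCB 52 rats and 17.1 to 26.8 CPM in sham rats, with a log2 fold change of 0.91 (SE 0.42, adjusted p = 1) that was 0.25 without rat 19. Cyp3a62 had the other small p in SAT, with a difference of -2.51 between the sexes' log2 fold changes (SE 0.91, unadjusted p = 0.0116, adjusted p = 0.754) and of -2.75 without the libraries that stood apart. Its level was 0 to 1.45 CPM in male PCB 52 rats, median 0.369 CPM, against a median of 1.33 CPM in male sham rats, and a median of 1.34 CPM in female PCB 52 rats against 0.825, 0.957, 0, 0.718 and 0.715 CPM in female sham rats. In VAT the interaction gave unadjusted p under 0.05 for Cyp2u1 (0.52, SE 0.22), Cyp2j3 (-0.67, SE 0.30) and Cyp4b1 (0.59, SE 0.27), with adjusted p of 0.435, 0.457 and 0.459.

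Genes that work with these enzymes were counted from 3 lists. Of the 17 P450 partners, for electron transfer and haem supply, all 17 were tested and 0 were called under PCB 52 in any sex and depot by edgeR, with 10 of 102 tests at an unadjusted p under 0.05, while DESeq2 called 1 in female VAT and 1 in BAT over both sexes, where it called 0.332% and 1.07% of all genes. Of 33 listed CAR and PXR partners and targets, 31 were in the tables, 20 to 23 were tested and 0 were called by edgeR in any sex and depot, with 10 of 127 tests at an unadjusted p under 0.05, while DESeq2 called 1 in BAT over both sexes. Of 24 listed epoxide and oxylipin genes, 23 were in the tables, 15 to 22 were tested and 0 were called by edgeR or by DESeq2, with 6 of 113 tests at an unadjusted p under 0.05. Of the edgeR tests of all genes within sex and depot, 5.95% had an unadjusted p under 0.05, from 1.44% in male SAT to 9.86% in male BAT. In BAT over SAT 10 of the 17 P450 partners were higher and 1 lower in males, where 28% and 27.3% of all genes were, and 10 were higher and 1 lower in females, where 20.3% and 27.3% of all genes were, with medians of 0.85 and 0.65 on the log2 scale against -0.04 and -0.14 over all genes tested. Por, the P450 reductase, averaged 475 CPM in BAT and 272 CPM in SAT of male sham rats (log2 fold change 0.88, SE 0.19, adjusted p = 0.000975) and 439 CPM in BAT and 116 CPM in SAT of female sham rats (1.91, SE 0.20, adjusted p = 6.3e-07). Alas1, the rate-limiting enzyme of haem synthesis, was higher in BAT by 1.84 (SE 0.20, adjusted p = 6.87e-07) in males and 2.48 (SE 0.28, adjusted p = 1.92e-06) in females. Against the same shares of all genes, 9 of 23 tested of the CAR and PXR list were higher and 4 lower in male BAT over SAT, and 8 were higher and 0 lower in females. Without the libraries that stood apart 13 of this list were called in females, and the share of all genes called in that fit was not counted. The smallest p in males belonged to Ppara, the fatty acid receptor (4.49, SE 0.24), and Ppargc1a, a coactivator of thermogenesis (6.67, SE 0.39). Of the oxylipin list 4 of 21 tested were higher and 9 lower in males, and 4 higher and 6 lower in females.

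Some members were seen almost only in single libraries, together with markers of other tissues. SAT of male PCB 52 rat 19, with its Cyp2b12, Cyp2b15 and Cyp2j10, also held 23.7 CPM of Cyp2s1 and 121 CPM of Cyp4f17. Its skin and sebaceous or preputial gland list, with 10 of 14 markers measured and none of the 10 at 0, summed to 62984 CPM, against 22.6 to 115 CPM in the other 5 libraries of its group and 28.5 to 82.0 CPM in male SAT sham. Mup4 made up most of that sum. Cyp4f4, a leukotriene B4 hydroxylase, stood at 62.5, 0.118, 0, 0.118 and 6.30 CPM in VAT of male PCB 52 rats 13, 15, 17, 19 and 23, against 0, 0.140, 3.15, 1.44, 1.52 and 66.2 CPM in that of male sham rats 1, 3, 5, 7, 9 and 11. The seminal vesicle and male tract list, with 8 of 10 markers measured, summed to 203 CPM in PCB 52 rat 13, 347 CPM in PCB 52 rat 23 and 1247 CPM in sham rat 11, against 0 to 21 CPM in the other male VAT libraries, and 0 in every female VAT library. Cyp4f40 was at 14.8 CPM in PCB 52 rat 13, 1.67 CPM in PCB 52 rat 23 and 8.22 CPM in sham rat 11, and at most 0.253 CPM elsewhere. The part of these tissues in the levels was not tested. Cyp2b12, Cyp2b15, Cyp2b21, Cyp2d1, Cyp2j10, Cyp4f40 and Tomm40l were singled out after their values were seen.

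Cyp2s1 was also high in SAT of male PCB 52 rat 23 and male sham rat 11, at 20.3 and 13.5 CPM, and in VAT of female sham rat 10, at 7.08 CPM. The lymphocyte list, with 9 of 10 markers measured, summed to 1020 CPM, 500 CPM and 232 CPM in those 3 libraries. It stood at 146 CPM in VAT of female sham rat 8, which held 3.99 CPM of Cyp2s1, and at 4.99 to 27.9 CPM in all others. In PCB 52 rat 19 it stood at 4.99 CPM beside 23.7 CPM of Cyp2s1. The part of lymphoid tissue in the Cyp2s1 level was not tested.

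Cyp2d1, a debrisoquine-type hydroxylase of rat liver, had its highest levels in libraries of 2 rats. It had 3.43, 3.5 and 3.48 CPM in BAT, SAT and VAT of female PCB 52 rat 18, and 0.886, 4.99 and 2.83 CPM in those of male sham rat 11. Elsewhere it was at most 1.05 CPM. These libraries hold 4 to 38 reads of Cyp2d1 each, and other Cyp2d genes on chromosome 7 are close in sequence, so the assignment to Cyp2d1 is uncertain.

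**Figure D5:**
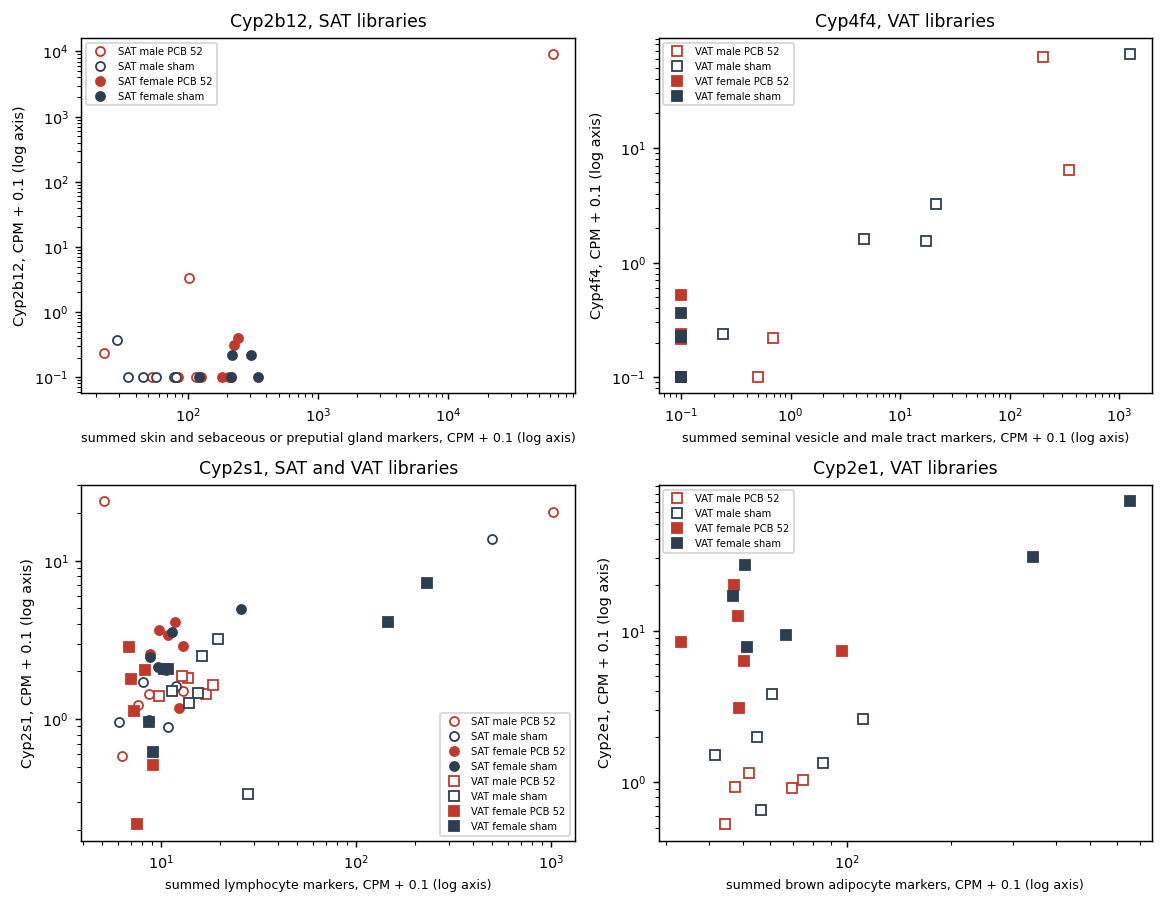
Levels of Cyp2b12 in SAT, Cyp4f4 in VAT, Cyp2s1 in SAT and VAT, and Cyp2e1 in VAT against the summed marker list named on each horizontal axis, all in CPM + 0.1 on log axes, 1 point per library. Red is PCB 52, dark is sham, open is male and filled is female. The highest Cyp2b12 and Cyp4f4 levels sit at the right of their plots, and 1 male SAT PCB 52 library is high in Cyp2s1 at the left.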

How the data were processed

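RNA from about 100 mg of tissue was sequenced after poly(A) capture or rRNA removal, and the labels do not say which. Per the submitters' processing notes FastQC, HISAT2 and the rat build rn6 were used. Not given in the sources used here are the aligner's version, the annotation, the counting program and its strand setting. The authors' 6 deposited tables hold counts, whole numbers per gene. The female VAT table was listed as estimated counts as deposited only for 5 lines that name no gene, and no gene line needed rounding. Those lines were left out, and its gene lines were read as whole-number counts like those of the other tables. Of the gene numbers 15230 matched the RefSeq table of GRCr8, used for symbols, chromosomes, overlaps and promoters, and 89 did not.

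Tests used R 4.3.3 and the package edgeR 4.0.16 (normalization by TMM, default expression filter, robust quasi-likelihood F test, Benjamini-Hochberg adjustment over all genes tested, threshold 0.05). Depot tests used the sham libraries of a sex. CPM were computed on TMM-adjusted totals. Of 170 library pairs within groups none was merged, the lowest chi-square per gene being 7.09. P-values measure only the spread between these samples. DESeq2 1.42.0, other size factors, no filter, libraries left out and the animal as a block were the alternatives, and the fits were tested on simulated data. CPM per kb of coding length was planned but not computed, since no lengths were used here. The text names members called in a comparison or, where fewer than 3 were, the 3 of smallest p, those with the highest levels in a depot, and a fixed set, with exceptions named in the report. Values were not printed for every such member in every comparison. Members and lists were chosen with earlier results of these data known.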

Additional observations from a re-analysis of the deposited data

Results flagged for a closer look

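In 210 groups of 4 to 10 libraries, each for 1 member, 26 held a library set far from the rest of its group. The rule flags about 1 in 20 groups by chance only where values are spread normally, which was not checked for CPM. A group entered when its mean was at least 1 CPM, which a single high library can bring about. No excess over chance can therefore be read from the 26. Several fell in the libraries that stood apart. SAT of male PCB 52 rat 19 held 9203 CPM of Cyp2b12, 465 CPM of Cyp2j10 and 121 CPM of Cyp4f17. BAT of female PCB 52 rat 24 held 39.3 CPM of Cyp4f5, 11.1 CPM of Cyp4f18 and 7.69 CPM of Cyp2j3. SAT of female sham rat 8 held 97.0 CPM of Cyp4f6 and 93.9 CPM of Cyp4f5, and VAT of female sham rat 4 held 71.3 CPM of Cyp2e1. In VAT, Cyp4f4 stood at 62.5 CPM in male PCB 52 rat 13 and 66.2 CPM in male sham rat 11, and Cyp2r1 at 3.43 CPM and 3.47 CPM in the same libraries.

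Cyp2b1 and Cyp2b2 were far above their groups together. They stood at 16.1 and 4.81 CPM in BAT of male PCB 52 rat 23, at 50.3 and 15.9 CPM in SAT of male PCB 52 rat 21, and at 31.6 and 6.99 CPM in VAT of male sham rat 5. Cyp4f6 was also high in the last 2 of these libraries, at 36.8 and 48.4 CPM, and Cyp2t1 in the first, at 25.4 CPM. The remaining libraries far from their group were SAT of male PCB 52 rat 13 with 11.6 CPM of Cyp2e1, SAT of male sham rat 11 with 13.5 CPM of Cyp2s1, SAT of male sham rat 1 with 3.16 CPM of Cyp3a62, and BAT of female PCB 52 rat 22 with 2.66 CPM of Cyp2r1.

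Of 150 pairs of PCB 52 effects, 2 were flagged by a rule that is not a test. In these, every PCB 52 library lay above the sham mean in 1 group and below it in the other. How often chance flags such a pair was not estimated. The log2 fold change of Cyp2d4 in female rats was -0.24 in BAT and 0.44 in SAT, and that difference was not tested. Without sham rat 8, whose library stood apart, the value in SAT was 0.24. For Cyp3a62 in SAT the male effect minus the female effect was -2.51 on the log2 scale, with an unadjusted p of 0.0116 and an adjusted p of 0.754 in edgeR.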

How the results depend on the processing

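No member was called under PCB 52, in any comparison, with other size factors, no expression filter, DESeq2 or without the libraries that stood apart, nor, within each sex and depot, without any 1 library. Counts of members called moved by over 1.5 times in few depot and sex comparisons. With DESeq2 they were 8 in female BAT against VAT (5 in edgeR), 5 in male SAT against VAT (3) and 2 in males against females in SAT (0), where DESeq2 called 32.6%, 28.4% and 8.48% of all genes. Without the libraries that stood apart they were 8 in female BAT against VAT and 5 in males against females in VAT (3). With no filter they were 17 in male BAT against VAT (10) and 5 in males against females in VAT. DESeq2 gave 13 of 15 members of male BAT no adjusted p under PCB 52. Leaving out 1 library gave 3 to 5 in male SAT against VAT, the 5 without VAT rat 5, and 2 to 5 in males against females in VAT, the 5 without male rat 11. For the settings other than DESeq2 the share of all genes called was not counted, so these counts are not a result about the members. The cause was not tested. Some uncalled log2 fold changes under PCB 52 reversed. Cyp2b1 in male BAT was -0.024 without PCB 52 rat 23, with a range over left-out libraries of -0.024 to 1.40. Cyp4f6 in female SAT was 0.16 without sham rat 8 (-0.56 with it), with a range of -0.80 to 0.16. Without the libraries that stood apart Cyp2j10 in SAT was -0.26 over both sexes (2.82 with them), and its interaction was -0.26 (5.71). The numbers of the rats pair the libraries only as read here, since deviations from group means correlated over 0.1 in 22 of 68 same-number pairs, with a median of 0.059. With the replicate block 3 members were called in female SAT against VAT (6 without the block, with Cyp2j3, Cyp4f18 and Cyp4f37 not called), and 8, 6, 10, 11 and 4 in female BAT against SAT, female BAT against VAT, male BAT against SAT, male BAT against VAT and male SAT against VAT. The share of all genes called with the block was likewise not counted. Depth limits members under about 1 CPM, which rest on a few reads.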
